A study of Mus musculus with 15 samples.

Results

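Ebf1, Ebf2, Ebf3, Tbx1, Tbx2, Tbx3, Tbx18 and Tbx20 are 8 transcription factor genes of the Ebf and T-box families, and their RNA was measured in endothelial cells, the cells that line blood vessels, from mouse brain, heart and liver. They are 8 of 19938 genes measured. The 8 genes were selected on family membership and with their measured tissue levels in these same arrays known, and each is read by 1 probe set that GEO's annotation assigns to that gene alone. All groups were Tie2-GFP mice on the FVB background, aged 8 to 12 weeks, with males and females in equal number, whose green fluorescent protein (GFP) transgene is driven by the promoter of Tek, also called Tie2, a receptor of endothelial cells. There were 5 brain samples, each a pool from 6 mice, 5 heart samples, each from 4 mice, and 5 liver samples, each from 2 mice, and the tissues were compared with each other. Visible large vessels were removed, the tissues were digested for 60 min (brain with crude collagenase and DNase followed by a short trypsin step, heart with collagenase I, liver with dispase at room temperature followed by removal of hepatocytes and a density gradient), and GFP-positive cells were sorted straight into lysis buffer. Tissue, enzyme, digestion temperature and pool size cannot be told apart in this design.

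Ebf proteins (early B cell factors) bind DNA through a domain found in this family and pair with each other through a helix-loop-helix. Ebf1 commits precursors to the B cell lineage and is also known from fat cells and from pericytes, the cells wrapped around capillaries. T-box proteins share the T-box DNA-binding domain. Tbx1, Tbx2, Tbx3, Tbx18 and Tbx20 are best known from the development of the heart, its outflow tract, its conduction system and its outer layer, the epicardium, where changes in gene dose alone can cause malformations.

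Values below are log2 RMA values, so a difference of 1 is a doubling of signal; the scale tends to compress large differences. Levels are compared between arrays of the same gene. The exception is a set of genes that these cells are not known to use, beside which a level is called low when it lies inside their range, as a description, since probes differ in brightness. The values of 1027 olfactory receptor genes had a median of 3.86, a 5th percentile of 2.74 and a 95th percentile of 5.72 over all arrays. Array medians over all genes lay between 5.98 and 6.11. Tek averaged 11.50 ± 0.13 in brain arrays, 11.02 ± 0.04 in heart arrays and 11.32 ± 0.08 in liver arrays (SD, n = 5 each), and the mean of 12 endothelial markers lay between 10.38 and 10.83 on all 15 arrays. Markers of other cells were not even. The mean of 14 cardiomyocyte markers was 5.49 to 5.77 in brain, 7.38 to 8.78 in heart, with 8.78 and 8.44 in heart replicates 1 and 3, and 5.45 to 5.73 in liver. The mean of 12 macrophage and Kupffer cell markers was 5.05 to 5.24 in brain and 5.14 to 5.47 in heart, and it was 8.20, 8.75 and 8.42 in liver replicates 1, 3 and 4 but 5.95 and 5.56 in liver replicates 2 and 5. The mean of 9 hepatocyte markers was 6.09 to 6.20 in brain, 5.14 to 5.30 in heart and, at its highest, 7.16 to 7.96 in liver.

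The 8 genes fell into different patterns. Ebf1 and Tbx3 were high in brain and heart endothelium and lowest in liver endothelium, Ebf3 was high in heart, Tbx1 was highest in brain and Tbx2 was highest in liver. Ebf2, Tbx18 and Tbx20 were low everywhere, with a small excess of Ebf2 and Tbx20 in heart. A gene was called in a comparison of 2 tissues when its adjusted p-value in a linear model over all genes was under 0.05 and its log2 difference was at least 1 in size. By that rule 1 of the 8 genes was lower in brain than in heart, where 3.86% of all genes were called, 1.74% lower and 2.12% higher in brain. For brain minus liver 3 of the 8 were higher in brain, where 7.38% of all genes were called, 3.49% higher and 3.89% lower in brain. For heart minus liver 3 of the 8 were higher in heart, where 6.51% of all genes were called, 2.83% higher and 3.68% lower in heart. The called genes were Ebf1, Ebf3, Tbx1 and Tbx3, and 0 members were called in the opposite directions. The genes were chosen by a rule that had these comparisons in view, so nothing is read from these counts and the members' differences are given without p-values. The median difference of the 8 genes was -0.06 for brain minus heart, 0.17 for brain minus liver and 0.67 for heart minus liver, beside -0.03, -0.00 and 0.03 over all genes.

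**Figure D1:**
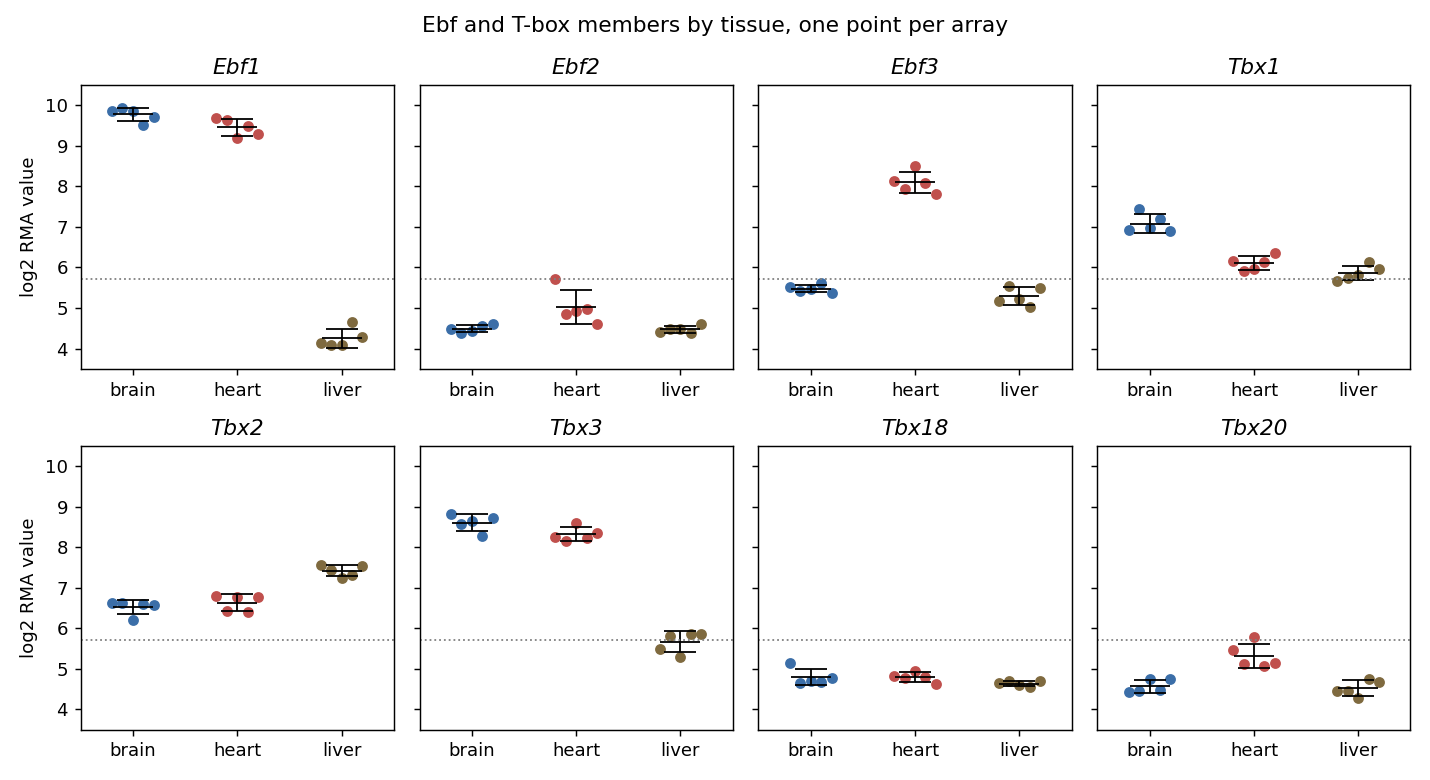
Log2 RMA values of the 8 genes, with 1 point per array and brain, heart and liver from left to right. Horizontal bars show the mean and SD of 5 arrays, and the dotted line is the 95th percentile of olfactory receptor genes (5.72). Ebf1 and Tbx3 are lowest in liver, Ebf3 stands out in heart, and Ebf2, Tbx18 and Tbx20 lie mostly under the line.

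Ebf1 (probe set 10375360) was the member with the widest range between tissues. Its values were 9.86, 9.92, 9.86, 9.52 and 9.71 in brain replicates 1 to 5, 9.68, 9.63, 9.20, 9.49 and 9.28 in heart and 4.15, 4.10, 4.10, 4.65 and 4.28 in liver. Every brain and heart array lay above 9, and every liver array lay inside the range of the olfactory receptor genes. The mean was 9.77 ± 0.16 in brain arrays, 9.46 ± 0.21 in heart arrays and 4.25 ± 0.23 in liver arrays (SD, n = 5 each). Brain exceeded liver by 5.52 (SE 0.12) and heart exceeded liver by 5.20 (SE 0.12). Folds are not given, because the liver values lie in that range and may not be above background. Brain and heart values overlapped, with a difference of 0.32 (SE 0.12), which shrank to 0.10 when arrays were centred on the endothelial markers. Those 12 markers include Cldn5, itself called higher in brain than in heart (2.35) and in liver (1.41). This scaling moved the median of all genes by -0.22 for brain minus heart. In sorted cells such as these, fewer cells that use a gene and less of its RNA per cell cannot be told apart.

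Ebf3 (probe set 10568735), a relative of Ebf1 known from the development of neurons and muscle, was high in heart alone among the 3 tissues. Its values were 5.52, 5.42, 5.46, 5.62 and 5.38 in brain arrays, 8.13, 7.94, 8.51, 8.08 and 7.81 in heart arrays and 5.17, 5.55, 5.22, 5.02 and 5.49 in liver. The lowest heart array lay more than 2 log2 units above the highest array of the other tissues, and all brain and liver values lay under the 95th percentile of the olfactory receptor genes. Brain minus heart was -2.62 (SE 0.12) and heart minus liver was 2.81 (SE 0.12), with no fold given for the same reason. Brain and liver differed by 0.19 (SE 0.12), with overlapping values. Without liver replicates 1, 3 and 4, the arrays with high macrophage markers, brain minus liver was -0.04 and heart minus liver 2.58.

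Ebf2 (probe set 10416126), which directs the fate of brown fat cells, was low in all tissues. It was measured at 4.48, 4.38, 4.43, 4.57 and 4.61 in brain arrays, 5.73, 4.86, 4.94, 4.99 and 4.61 in heart arrays and 4.42, 4.48, 4.48, 4.39 and 4.61 in liver arrays. Heart replicate 1 stood above the rest and was the 1 value past the 95th percentile of the olfactory receptor genes. Brain minus heart was -0.53 (SE 0.15) and heart minus liver 0.55 (SE 0.15). Without heart replicates 1 and 3 these differences were -0.32 and 0.34. The Ebf proteins are close relatives, and how far the probes for each also bind RNA of the others was not tested.

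The sequences just upstream of the start of Ebf1 and Ebf3 are shown because these genes had the largest differences between liver and heart among the 8, and that of Tbx1 because its brain arrays lay above all others. They are the 250 bases before the start site in RefSeq (GRCm38.p6), 5′ to 3′, for the outermost start listed of each gene; 5 of the 8 genes (Ebf1, Ebf3, Tbx1, Tbx18 and Tbx20) matched the table. Capitals mark matches to the motifs searched.
Ebf1 (chr11:44617850-44618099, plus strand): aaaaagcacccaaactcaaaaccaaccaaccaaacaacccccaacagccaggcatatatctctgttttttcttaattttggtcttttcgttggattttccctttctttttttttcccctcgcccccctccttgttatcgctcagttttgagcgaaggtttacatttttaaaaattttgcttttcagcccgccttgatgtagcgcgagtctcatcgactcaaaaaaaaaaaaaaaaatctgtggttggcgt
Ebf3 (chr7:137314446-137314695, minus strand): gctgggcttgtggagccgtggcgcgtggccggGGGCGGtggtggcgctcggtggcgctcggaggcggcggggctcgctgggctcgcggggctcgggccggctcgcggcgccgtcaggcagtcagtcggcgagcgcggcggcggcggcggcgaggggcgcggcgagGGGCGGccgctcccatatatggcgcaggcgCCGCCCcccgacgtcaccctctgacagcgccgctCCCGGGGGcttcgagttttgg
Tbx1 (chr16:18590672-18590921, minus strand): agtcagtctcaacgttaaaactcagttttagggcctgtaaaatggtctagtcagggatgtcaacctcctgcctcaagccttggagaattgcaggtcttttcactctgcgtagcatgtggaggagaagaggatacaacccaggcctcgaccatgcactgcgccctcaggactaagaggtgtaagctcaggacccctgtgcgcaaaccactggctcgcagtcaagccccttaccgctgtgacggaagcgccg

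The motifs searched, on both strands, were the Ebf palindrome, its core CCCNNGGG, the T-box site AGGTGTGA, the ETS site CCGGAAGT, the GC box GGGCGG and the TATA box TATAAA; every palindrome match holds a core match, and no other motif searched lies within another. Ebf3 held 1 Ebf core, starting 21 bases before its start site, and 3 GC boxes that did not overlap it. The core was present in 11.8% and the GC box in 32.7% of 32841 promoter windows of the same length. None of the 6 motifs was found in the windows of Ebf1 and Tbx1 shown. The ETS site was present in 2.88% and the TATA box in 12.4% of all windows. The T-box site, present in 1.12% of all windows, and the palindrome, present in 0.78%, were not found in any window of the 5 genes. The Ebf3 window was 80% G and C, against 40% for the Ebf1 window and a median of 52.4% over all windows. Ebf1 and Tbx1 each have another listed start, whose window is not shown. That window was 52% G and C with 0 motif matches for Ebf1, and 67.2% with 1 GC box for Tbx1. A match describes the letters and does not show that a protein binds there.

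Among the T-box genes Tbx3 (probe set 10525016) had the largest range. Tbx3 encodes a repressor that keeps the cells of the cardiac conduction system from turning into working muscle. Its values were 8.80, 8.58, 8.64, 8.26 and 8.72 in brain arrays, 8.25, 8.16, 8.59, 8.22 and 8.36 in heart arrays and 5.49, 5.82, 5.29, 5.86 and 5.86 in liver arrays. Brain and heart overlapped, and all liver arrays lay well below both. Means were 8.60 ± 0.21 in brain arrays, 8.32 ± 0.17 in heart arrays and 5.66 ± 0.26 in liver arrays (SD, n = 5 each). Brain exceeded liver by 2.94 (SE 0.13) and heart exceeded liver by 2.65 (SE 0.13). In liver 3 of 5 arrays lay above the 95th percentile of the olfactory receptor genes. The difference of 0.28 (SE 0.13) between brain and heart was 0.07 when arrays were centred on the endothelial markers.

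Tbx2 (probe set 10379936), the closest relative of Tbx3 and likewise a repressor, ran the other way. It was measured at 6.62, 6.61, 6.20, 6.59 and 6.57 in brain arrays, 6.80, 6.43, 6.78, 6.39 and 6.76 in heart arrays and 7.55, 7.45, 7.25, 7.32 and 7.53 in liver arrays. All liver arrays lay above all others, and brain and heart overlapped. Brain minus liver was -0.90 (SE 0.11), a 1.86-fold lower level in brain, and heart minus liver was -0.79 (SE 0.11), a 1.72-fold lower level in heart. Both differences fell short of the size needed for a call. Brain minus liver reached -1.09 and was then called when arrays were centred on the endothelial markers, a scaling that moved the median of all genes by -0.19 for this comparison.

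Tbx1 (probe set 10438347), the T-box gene in the human region deleted in DiGeorge syndrome and a regulator of outflow tract and lymphatic vessel growth, was highest in brain. Its values were 6.92, 7.44, 6.97, 7.19 and 6.90 in brain arrays, 6.15, 5.92, 5.96, 6.14 and 6.35 in heart arrays and 5.68, 5.74, 5.81, 6.13 and 5.97 in liver arrays. All brain arrays lay above all others, while heart and liver overlapped. Brain exceeded liver by 1.22 (SE 0.12) and exceeded heart by 0.98 (SE 0.12). In liver 4 of 5 arrays lay above the 95th percentile of the olfactory receptor genes, and in heart 5 of 5 did. Folds are not given, because the heart and liver values lie near or inside that range and may not be above background. The difference from heart lay at the edge of the rule and was called, at 1.01 to 1.04, without brain replicate 1, 3 or 5 or without heart replicate 5. It was 0.76 with arrays centred on the endothelial markers. The mean of 13 markers of neurons and glia was 5.11 to 5.34 in brain arrays, 5.15 to 5.25 in heart arrays and 4.93 to 5.24 in liver arrays. In any comparison 0 of the 13 were called, beside 10.2% of all genes. By the adjusted p alone 3 of the 13 (Snap25, Aqp4 and Aldh1l1) passed in some comparison, beside 37.8% of all genes. Brain minus liver was 0.42 for Aqp4 and -0.52 for Aldh1l1. The part of neurons and glia in the level of Tbx1 was not tested.

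Tbx20 (probe set 10591853), a factor of heart muscle and endocardium, was low in all 3 tissues and somewhat higher in heart. It was measured at 4.42, 4.45, 4.75, 4.48 and 4.74 in brain arrays, 5.46, 5.12, 5.78, 5.07 and 5.13 in heart arrays and 4.47, 4.45, 4.28, 4.75 and 4.68 in liver arrays. All heart arrays lay above all others, but heart replicate 3 alone passed the 95th percentile of the olfactory receptor genes. Brain minus heart was -0.75 (SE 0.13) and heart minus liver 0.79 (SE 0.13). The heart arrays with the highest Tbx20, replicates 3 and 1, were also those with the highest cardiomyocyte markers. Without both of them the differences were -0.54 and 0.58. The mean of 8 markers of endocardium and valves was 7.52 to 8.01 in brain arrays, 7.16 to 7.63 in heart arrays and 6.87 to 7.22 in liver arrays. Its genes went in opposite directions, with 3 higher and 2 lower in brain than in heart, and 3 higher and 2 lower in heart than in liver.

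Tbx18 (probe set 10595560), a factor of the epicardium and of pericytes and smooth muscle, gave the flattest profile. Its values were 5.15, 4.66, 4.70, 4.68 and 4.78 in brain arrays, 4.83, 4.77, 4.96, 4.79 and 4.64 in heart arrays and 4.64, 4.70, 4.60, 4.56 and 4.69 in liver arrays. The tissues overlapped in all 3 comparisons, no value passed 5.72, and the largest difference between means was 0.16 (SE 0.09). Brain replicate 1, the brain array with the highest pericyte and smooth muscle markers, had the highest value.

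**Figure D2:**
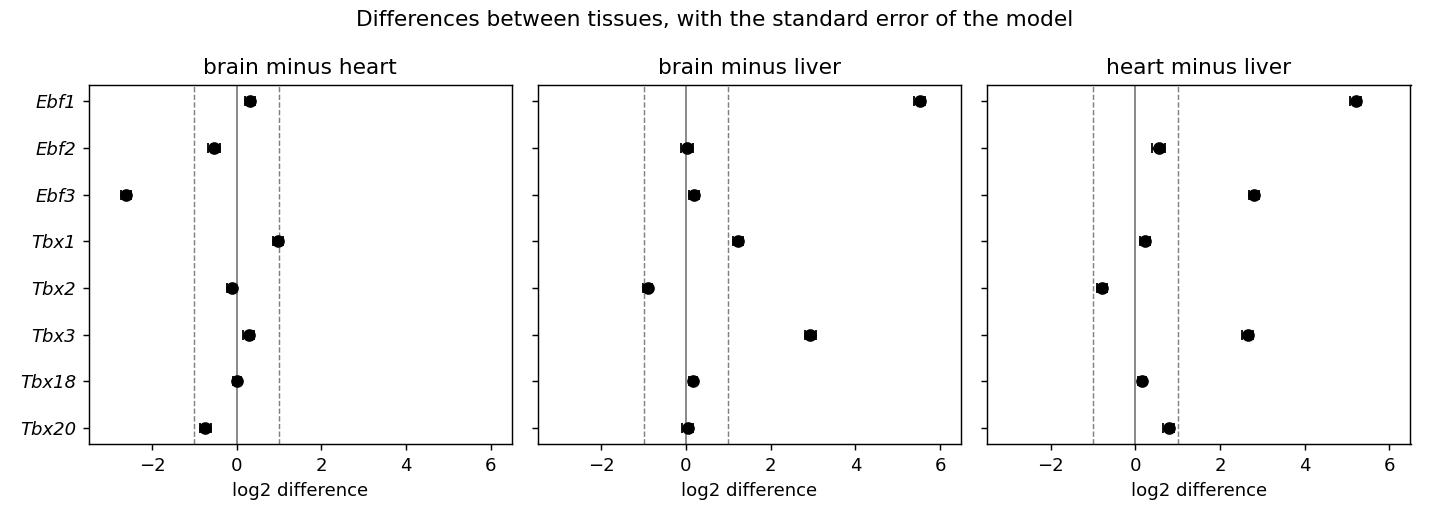
Log2 differences of the 8 genes for brain minus heart, brain minus liver and heart minus liver, with the standard error of the model as bars and dashed lines at -1 and 1. Ebf1 and Tbx3 lie far to the right in both comparisons with liver, and Ebf3 lies left of -1 for brain minus heart.

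Ebf1 and Tbx18 are used by pericytes and Ebf1 by B cells, so markers of these cells are set beside them. The mean of 15 pericyte and smooth muscle markers was 7.75, 6.40, 6.74, 6.89 and 6.15 in brain arrays, 7.99, 7.34, 7.71, 7.24 and 6.69 in heart arrays and 6.10 to 6.20 in liver arrays. Of these markers 5 were lower in brain than in heart and 0 higher, 4 were higher in brain than in liver and 1 lower, and 6 were higher in heart than in liver and 0 lower. The pericyte markers Rgs5 and Higd1b averaged 8.73 ± 1.01 and 6.04 ± 0.98 in brain arrays, 10.47 ± 0.59 and 6.68 ± 0.69 in heart arrays and 6.93 ± 0.97 and 4.74 ± 0.28 in liver arrays. The smooth muscle actin gene Acta2 averaged 8.53 ± 1.12 in brain arrays, 8.42 ± 0.51 in heart arrays and 5.15 ± 0.23 in liver arrays. The list mean was lowest in liver, as Ebf1 and Tbx3 were. Not all of its genes followed, and the pericyte channel subunit gene Abcc9 averaged 6.11 ± 0.51 in brain arrays, 8.41 ± 1.09 in heart arrays and 8.72 ± 0.26 in liver arrays. Brain replicate 5 had a list mean of 6.15, inside the range of the liver arrays, and its Ebf1 and Tbx3 values were 9.71 and 8.72. Its Acta2, at 7.05, was nonetheless above the liver range of 4.88 to 5.46. Its Abcc9, at 5.63, was below the liver range of 8.32 to 8.96. An equal list mean therefore does not show an equal share of these cells. The part of pericytes in the levels of Ebf1 and Tbx3 was not tested.

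The mean of 9 B cell markers was 4.78 to 5.07 in brain arrays, 5.00 to 5.17 in heart arrays and 5.07 to 5.23 in liver arrays. The B cell receptor component Cd79a was 3.82 ± 0.33 in brain arrays, 3.92 ± 0.18 in heart arrays and 3.81 ± 0.33 in liver arrays, and the B cell surface protein Ms4a1 was 4.13 ± 0.11 in brain arrays, 4.13 ± 0.18 in heart arrays and 4.22 ± 0.17 in liver arrays, all inside the range of the olfactory receptor genes. Ighm, the heavy chain gene of IgM, averaged 5.81 ± 0.12 in brain arrays, 5.99 ± 0.16 in heart arrays and 5.68 ± 0.16 in liver arrays. The kinase Blk alone among the 9 was called, beside 10.2% of all genes called in some comparison. Blk was 5.63 ± 0.16 in brain arrays, 5.80 ± 0.19 in heart arrays and 6.70 ± 0.17 in liver arrays. It was lower in brain than in liver (-1.08, SE 0.11, limma adjusted p = 3.45e-07).

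Ebf3, Ebf2 and Tbx20 were highest in heart, where markers of fibroblasts and cardiomyocytes were also highest. The mean of 11 fibroblast markers was 5.45 to 5.95 in brain arrays, 7.31, 6.63, 6.85, 6.60 and 6.25 in heart arrays and 5.47 to 5.94 in liver arrays. Of these markers 4 were lower in brain than in heart and 5 higher in heart than in liver. Heart replicate 5, with the lowest fibroblast and pericyte markers of the heart arrays, had the lowest Ebf2 and Ebf3 of the heart arrays. Its Ebf3 was 7.81, and its fibroblast marker mean of 6.25 was above that of every brain and liver array. Heart replicate 1, with the highest, had the highest Ebf2. Ebf3 without heart replicates 1 and 3 was lower in brain than in heart by a difference of -2.47 and higher in heart than in liver by 2.66. The part of other cells in these levels was not tested.

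Of 9 markers of the epicardium and mesothelium, 1 was called, Wt1, at 6.21 ± 0.20 in brain arrays, 8.76 ± 0.35 in heart arrays and 6.28 ± 0.28 in liver arrays. The other 8 were not called in any comparison, while 10.2% of all genes were called in at least 1. The mesothelial genes Upk3b and Msln averaged 5.47 ± 0.18 and 5.37 ± 0.07 in heart, under the 95th percentile of the olfactory receptor genes.

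**Figure D3:**
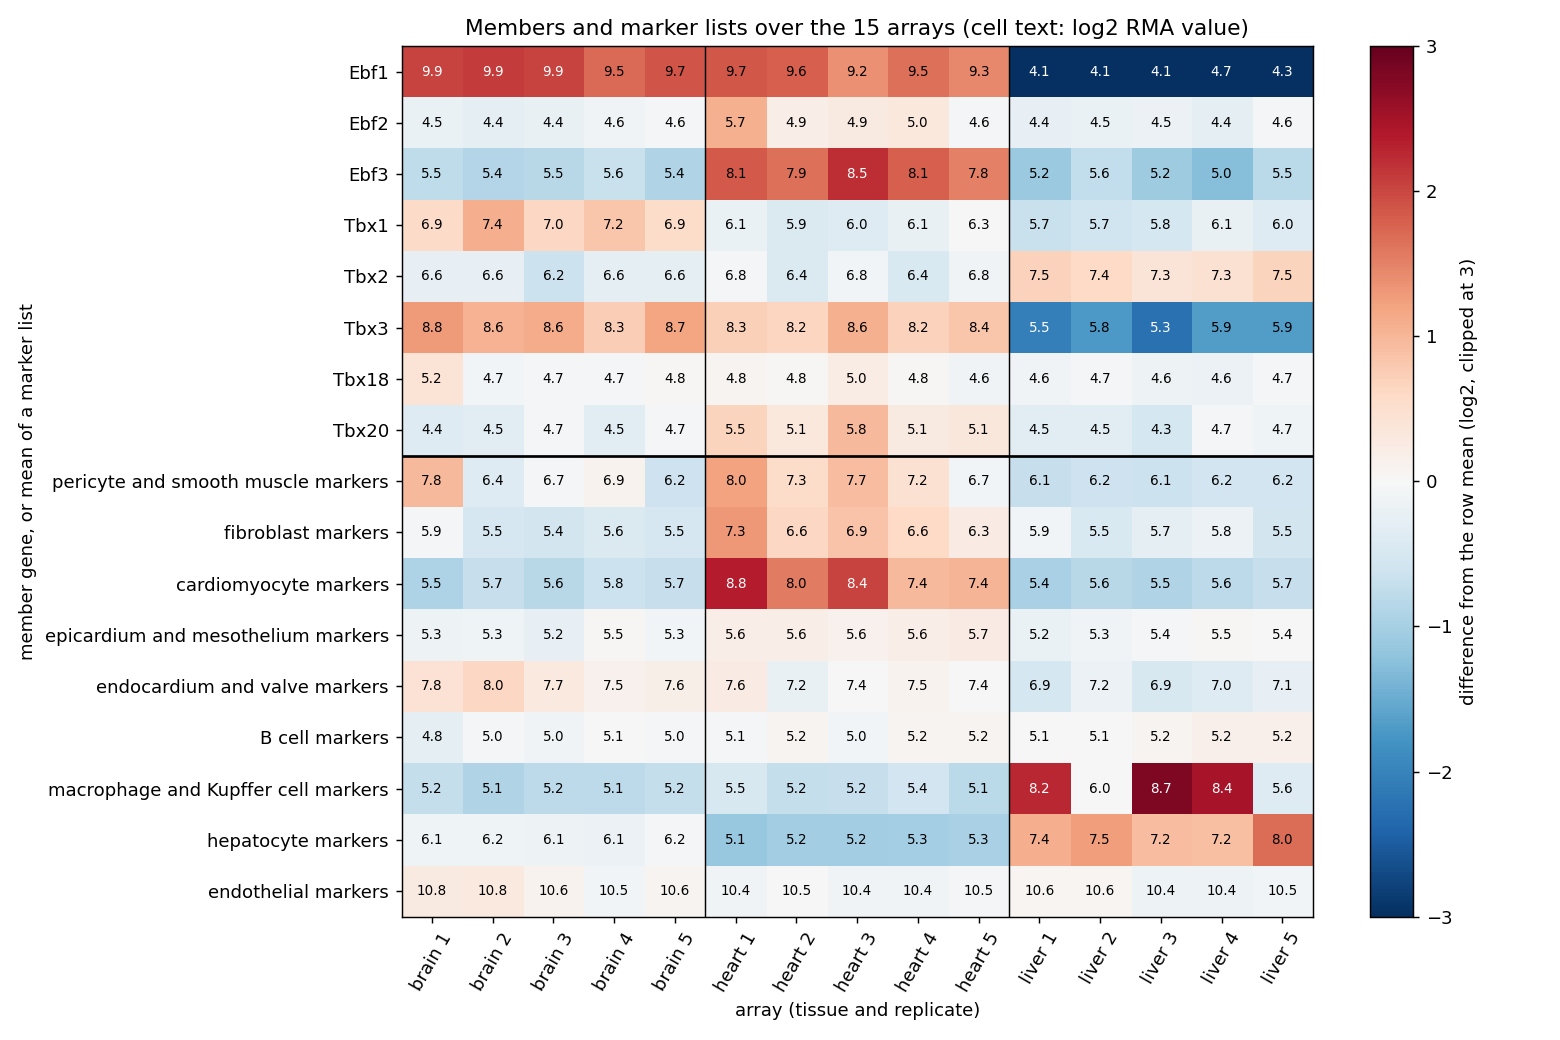
The 8 genes (upper rows) and the means of 9 marker lists (lower rows) in each of the 15 arrays. Cell text is the log2 RMA value and colour is the difference from the row mean, clipped at 3. Among the heart arrays the SD was 0.49, 0.39 and 0.62 for the pericyte, fibroblast and cardiomyocyte lists. It was 0.21, 0.42, 0.26, 0.17 and 0.30 for Ebf1, Ebf2, Ebf3, Tbx3 and Tbx20. The part of other cells in these values was not tested. The macrophage list separates liver replicates 1, 3 and 4 from 2 and 5.

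Of 13 further Ebf and T-box genes listed by family name, 11 were measured and 0 were called with limma in any comparison, while 10.2% of all genes were called in at least 1; 2 passed the adjusted p-value alone in some comparison, as 37.8% of all genes did, and 4 had an unadjusted p under 0.05. The others of the 13, Tbxt and Tbx10, were not analysed here. Tbx4, a factor of hindlimb and lung, was 6.42, 6.57, 6.46, 6.10 and 6.34 in brain arrays, 5.55, 5.25, 5.68, 5.67 and 5.87 in heart arrays and 5.57, 5.83, 5.50, 5.98 and 6.23 in liver arrays. Its brain arrays lay above all heart arrays, with a difference of 0.77 (SE 0.14, limma adjusted p = 0.000622), and brain minus liver was 0.56 (adjusted p = 0.00566). Mga, a large protein that carries both a T-box and a Max-binding domain, averaged 8.39 ± 0.11 in brain arrays, 8.84 ± 0.09 in heart arrays and 8.51 ± 0.08 in liver arrays (SD, n = 5 each). It was lower in brain than in heart by a difference of -0.45 (limma adjusted p = 0.000286) and higher in heart than in liver by 0.33 (adjusted p = 0.00287). The means of the other 9 (Ebf4, Tbx5, Tbx6, Tbx15, Tbx19, Tbx21, Tbx22, Eomes and Tbr1) lay between 3.69 and 5.92 in all tissues.

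In the RefSeq gene table Tbx4 is the coding gene next to Tbx2, and Tbx5 the one next to Tbx3. Tbx4 had its highest mean in brain and Tbx2 in liver. Tbx5, a main driver of heart and forelimb development, was 4.13 ± 0.14 in brain arrays, 4.30 ± 0.15 in heart arrays and 4.04 ± 0.19 in liver arrays, while Tbx3 differed by more than 2 log2 units between liver and the other tissues.

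**Figure D4:**
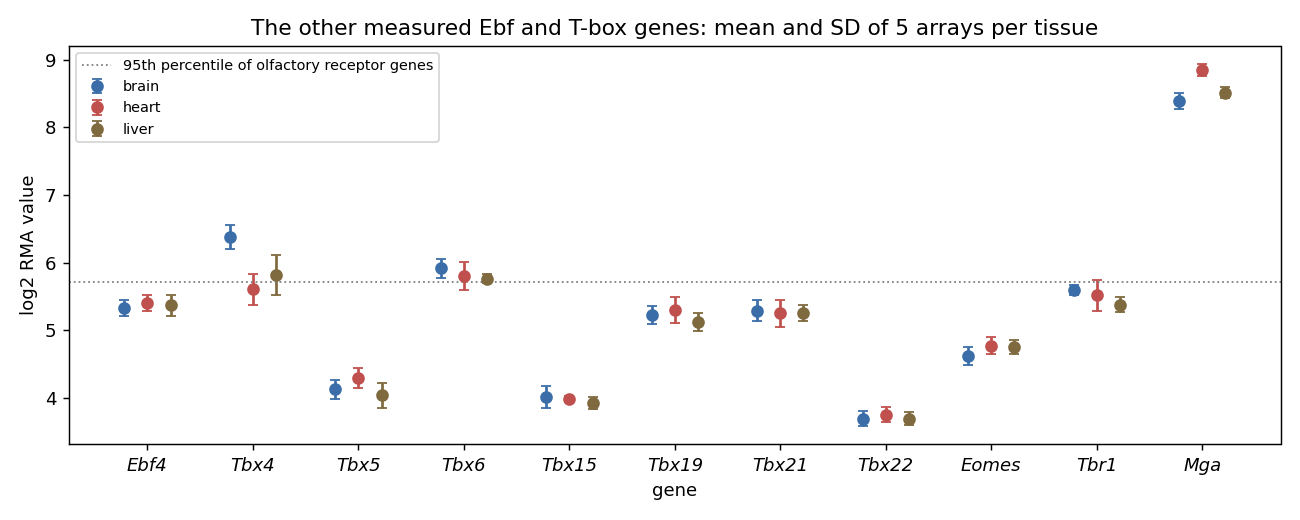
Mean and SD of 5 arrays per tissue for the 11 other measured Ebf and T-box genes, on the log2 RMA scale. The dotted line is the 95th percentile of olfactory receptor genes. Mga lies well above the line in all tissues, Tbx4 and Tbx6 lie near it with Tbx4 highest in brain, and the other 8 lie below it.

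Genes that work with Ebf proteins or are their known targets in other cells differed in different directions between the tissues. Of 17 such genes 16 were measured and 5 were called in some comparison (10.2% of all genes were); 0 were higher and 2 lower in brain than in heart, 1 higher and 3 lower in brain than in liver, and 2 higher and 0 lower in heart than in liver. By the adjusted p alone 8 of the 16 passed in some comparison, beside 37.8% of all genes. Their median difference was -0.10, 0.04 and 0.13 in the same order. Zfp423, a zinc finger protein that binds Ebf1, averaged 8.61 ± 0.24 in brain arrays, 7.92 ± 0.06 in heart arrays and 7.06 ± 0.37 in liver arrays, and brain exceeded liver by 1.55 (SE 0.15, limma adjusted p = 2.55e-07). Its relative Zfp521 was 6.83 ± 0.28 in brain arrays, 6.93 ± 0.31 in heart arrays and 6.76 ± 0.17 in liver arrays, with no call. Pparg, the nuclear receptor of fat cells that Ebf1 activates there, was 5.52 ± 0.22 in brain arrays, 10.12 ± 0.26 in heart arrays and 6.69 ± 0.26 in liver arrays. Brain minus heart was -4.60 (SE 0.14, limma adjusted p = 1.21e-13), so that Pparg was low in brain, where Ebf1 was high. Cebpa, another fat cell factor, was lower in brain than in liver (-1.09, SE 0.14, limma adjusted p = 8.75e-06). Without liver replicates 1, 3 and 4 Cebpa and Blk were no longer called (-0.83 and -0.98), which left 3 called genes. Pdgfrb, a receptor of pericytes, was 5.96 ± 0.62 in brain arrays, 7.04 ± 0.77 in heart arrays and 5.28 ± 0.08 in liver arrays. It was higher in heart than in liver by 1.76 (SE 0.31, limma adjusted p = 0.000287), and its call for brain minus heart (-1.08, adjusted p = 0.023) was lost in 7 of 26 alternatives, with -0.60 without heart replicates 1 and 3. The B cell factor Pax5 and the pre-B cell gene Vpreb3 averaged 5.51 to 5.66 and 5.11 to 5.38 over the tissues.

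Of 23 partners and targets of T-box proteins 21 were measured and 4 were called in some comparison, as 10.2% of all genes were; 0 were higher and 1 lower in brain than in heart, 1 higher and 2 lower in brain than in liver, and 2 higher and 2 lower in heart than in liver. By the adjusted p alone 9 of the 21 passed in some comparison, beside 37.8% of all genes. Their median difference was -0.07, -0.00 and 0.08 in the same order. Flt4, the lymphatic growth factor receptor that Tbx1 controls in lymphatic endothelium, averaged 7.61 ± 0.18 in brain arrays, 7.06 ± 0.17 in heart arrays and 9.98 ± 0.29 in liver arrays. Brain minus liver was -2.36 (SE 0.13, limma adjusted p = 1.24e-10), with the highest Flt4 in liver, where Tbx1 averaged 5.87 ± 0.18. Gata4, a partner of Tbx20 in the heart, was lower in brain than in liver by a difference of -2.74 (SE 0.10, limma adjusted p = 5.76e-13). Gata6 was highest in heart, at 6.94 ± 0.17 in brain arrays, 8.09 ± 0.29 in heart arrays and 6.80 ± 0.21 in liver arrays; brain minus heart was -1.15 (SE 0.13, limma adjusted p = 5.52e-06) and was -0.96, under the size for a call, without heart replicates 1 and 3. Gja5, the arterial gap junction gene that Tbx2 and Tbx3 repress in heart muscle, was 7.91 ± 0.62 in brain arrays, 8.40 ± 0.36 in heart arrays and 6.89 ± 0.51 in liver arrays. It was higher in heart than in liver by 1.51 (SE 0.28, limma adjusted p = 0.000445), a call lost without liver replicates 1, 3 and 4 (1.07, adjusted p = 0.0549), and its call for brain minus liver (1.02, adjusted p = 0.0104) was lost in 8 of 26 alternatives. Dll4, a Notch ligand that Tbx1 activates in brain vessels, was 7.73 ± 0.24 in brain arrays, 8.09 ± 0.26 in heart arrays and 7.75 ± 0.21 in liver arrays, with no call. Nppa, a target that Tbx2 and Tbx3 repress, was not called either, at 5.30 ± 0.22 in brain arrays, 5.82 ± 0.21 in heart arrays and 5.31 ± 0.27 in liver arrays, though it passed the adjusted p alone (brain minus heart -0.51, limma adjusted p = 0.0135).

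Of 22 other transcription factors known from endothelium 13 were called in some comparison, as 10.2% of all genes were. This list was chosen with earlier results of these data known, so nothing is read from its count. Hey1, a Notch effector, averaged 8.88 ± 0.32 in brain arrays, 9.01 ± 0.12 in heart arrays and 5.54 ± 0.21 in liver arrays, so that it was lowest in liver like Ebf1 and Tbx3. Its brain minus liver difference was 3.33 (SE 0.14, limma adjusted p = 1.84e-12). Foxc1, a forkhead factor of vessels and meninges, was highest in brain, with differences of 2.16 from heart (SE 0.16, limma adjusted p = 1.81e-08) and 2.87 from liver (SE 0.16, adjusted p = 1.52e-10). Meox2, a homeobox factor, was high in heart alone, as Ebf3 was, with brain minus heart at -5.11 (SE 0.10, limma adjusted p = 4.5e-16). Tfec, a factor related to Mitf, was high in liver alone, with brain minus liver at -6.13 (SE 0.12, limma adjusted p = 8e-17). Lef1 and Foxf2 were also among the 6 factors with the largest called differences, at 5.04 and 3.67 in size. The tissues in which they were high are not described here.

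The genes whose pattern over the 15 arrays was most like that of a member were found by the root mean square (RMS) difference between log2 values after each gene's own mean was subtracted, for the 4 members whose tissue means spanned at least 1. The arrays within a tissue share that tissue, so the measure mostly compares tissue levels and is given as a description. Ebf1 was most like Rassf9 (RMS 0.40), Palmd (0.42) and Dnm3, a dynamin (0.45). Rassf9 averaged 9.49 ± 0.08 in brain arrays, 9.81 ± 0.20 in heart arrays and 4.40 ± 0.44 in liver arrays, and Palmd was 11.21 ± 0.15 in brain arrays, 10.82 ± 0.19 in heart arrays and 6.12 ± 0.45 in liver arrays. Tbx3 was most like Palm (RMS 0.23), which encodes the membrane protein paralemmin and is a relative of Palmd, followed by Lysmd2 (0.23) and the ephrin receptor Epha4 (0.26). Epha4 was 9.14 ± 0.14 in brain arrays, 8.82 ± 0.11 in heart arrays and 5.90 ± 0.32 in liver arrays. Ebf3 was most like the nucleoside carrier Slc28a2 (RMS 0.28), the reticulon Rtn1 (0.29) and Wt1 (0.31). Slc28a2 was 3.89 ± 0.08 in brain arrays, 6.94 ± 0.18 in heart arrays and 3.80 ± 0.11 in liver arrays. Tbx1 was most like Rasgrp4 (RMS 0.17), Specc1l (0.18) and Def6 (0.18). Among the members, the RMS difference of Ebf1 and Tbx3 was 1.23, with a smaller difference from liver for Tbx3.

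**Figure D5:**
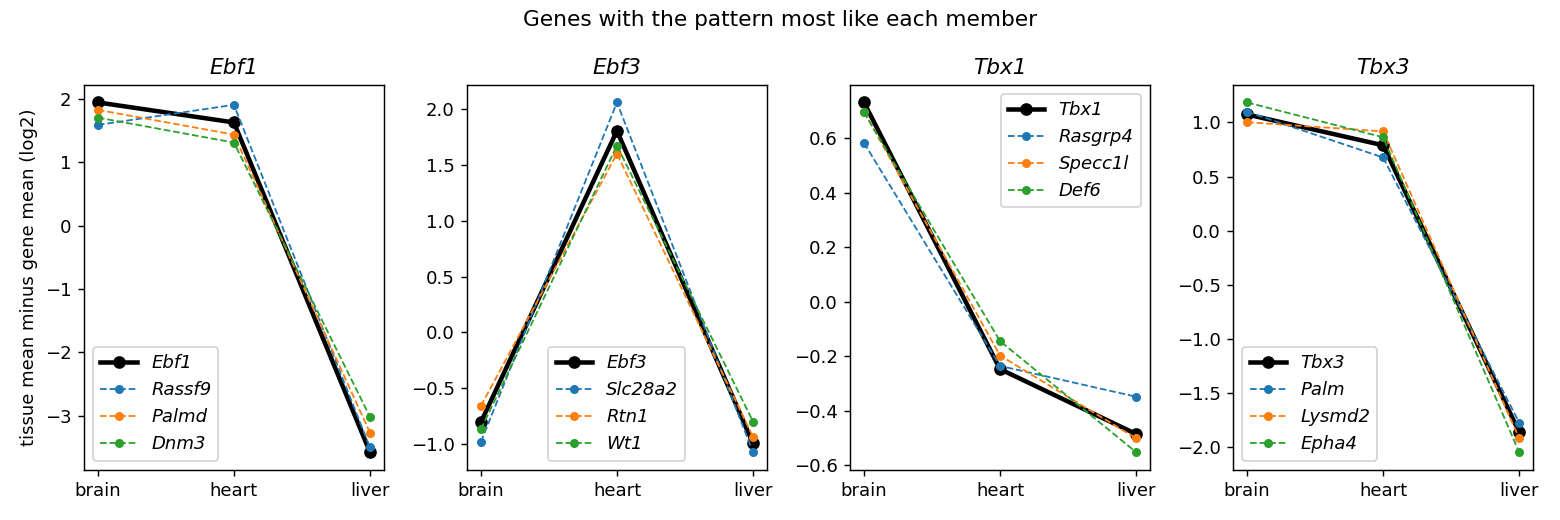
Tissue means, less the mean of the 3 tissues, for Ebf1, Ebf3, Tbx1 and Tbx3 (black) and the 3 genes with the smallest RMS difference from each (dashed), in log2 units. The vertical scales differ between panels.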

How the data were processed

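RNA of 15 pooled samples, 5 ng each, was amplified and hybridised to Affymetrix mouse gene arrays, per the labels' protocols. The deposited log2 values of 35556 probe sets were made by the authors with RMA in Affymetrix Power Tools, per the submitters' processing notes; neither versions nor a genome build is given in the sources used here. Signal over background was not measured here, and 5 arrays per tissue limit the precision.

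GEO's annotation gave 1 symbol to 21789 probe sets, several to 1621 and none to 12146; the last 2 kinds were left out. The probe set with the highest mean was kept for the 999 genes with several, which gave 19938 genes; each of the 8 members has 1. A model over the 15 arrays, with a mean for each tissue, was estimated by limma 3.58.1 (lmFit, eBayes) in R 4.3.3, with Benjamini-Hochberg adjustment over all genes within a comparison; adjusted p-values come from this fit, and SE is that of the model. Nothing says that the pools came from separate cohorts beyond their labels, so p-values measure the spread between these pools. In a simulation of brain minus heart on 19938 genes, 99% of genes changed by 1.5 and 100% of those changed by 3 were called. Both changes exceed the size of 1 needed for a call, and the simulated noise was normal and independent between arrays. The simulation therefore checks that the code runs as meant. It does not cover differences near 1 or uneven admixture of other cells.

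The members and gene lists were chosen with earlier results of these data known. All members and other family genes are named; from the partner, target and factor lists the called genes with the largest differences, at most 6 each, with Zfp521, Pax5, Vpreb3, Dll4, Nppa and the single marker genes picked after their values were seen. Alternatives changed the scaling, filter, probe sets, variance model, samples and replicate term. Promoters are from RefSeq.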

Additional observations from a re-analysis of the deposited data

Results flagged for a closer look

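In 6 of 57 groups of 5 arrays (19 genes in 3 tissues), the highest or lowest array lay apart from the other 4, with a gap of more than 0.71 of the range of the group; chance gives about 1 in 20. Among the members, Tbx2 in brain replicate 3 was 6.20, below the other brain arrays, and Tbx18 in brain replicate 1 was 5.15, above them. That array also had the highest pericyte and smooth muscle marker mean of brain (7.75), and the part of these cells was not tested. Among the other family genes, Ebf4 was highest in heart replicate 4 at 5.61 and lowest in liver replicate 1 at 5.09, Tbx6 was highest in brain replicate 5 at 6.17, and Tbr1 was lowest in brain replicate 3 at 5.47.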

How the results depend on the processing

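The counts of called genes (769 for brain minus heart, 1472 for brain minus liver and 1298 for heart minus liver) stayed within 1.5 times of these values in all 26 alternatives. Leaving out each array in turn gave 755 to 793, 1442 to 1530 and 1236 to 1354. In 25 of the 26, 4 members were called in some comparison, beside 10.2% of all genes in the main fit. With arrays centred on the endothelial markers Tbx2 was added, which made 5. The members were chosen with these comparisons in view, so nothing is read from the stability of this count. The count of other family genes was 0 of 11 in all 26. Keeping genes with a mean of at least 6 over the 15 arrays retained 5 of the 8 members. Ebf3 passed only through its heart arrays, with means of 8.10 there, 5.48 in brain and 5.29 in liver. Ebf1, Tbx1 and Tbx3 passed with liver means under 6 (4.25, 5.87 and 5.66). Their calls after this filter are therefore no separate check. The 5 called Ebf partners and targets became 3 without liver replicates 1, 3 and 4, an alternative chosen after seeing the data that leaves 2 liver arrays. No called difference of a named gene changed sign, and among named genes other than members 6 differences lost their call in at least 1 alternative: Gja5 for brain minus liver in 8 and for heart minus liver in 1, Pdgfrb for brain minus heart in 7, and Gata6, Cebpa and Blk in 1 each. Centring on the endothelial markers moved the median of all genes by -0.22, -0.19 and 0.03 in the 3 comparisons, and the members with it. Of the 12 markers, 1 was called higher in brain than in heart and 2 higher in brain than in liver, with 0 lower. Cldn5 was called in both, at 11.27 in brain arrays, 8.92 in heart arrays and 9.86 in liver arrays. Equal replicate numbers were not taken to pair the samples, since the labels do not say so. The deviations of same-numbered arrays correlated at -0.00 to 0.20, with 6 of 15 pairs over 0.1. In 9 of the 15 the array correlated best with its own number among the 5 arrays of the other tissue. This is a hint of shared deviations from the data and not from the design. With the replicate block the counts were 770, 1479 and 1300, with 4 members, 0 other family genes, 5 Ebf partners and targets and 4 T-box partners and targets called. Signal over background was not measured, and values inside the olfactory receptor range limit how a difference can be read as a fold.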
